A study of Homo sapiens with 12 samples.

Results

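The unfolded protein response is the program with which a cell adapts its endoplasmic reticulum (ER) to a load of unfolded proteins. In the mRNA-seq of NB4 and Kasumi-1 cells it was followed through 10 genes: HSPA5, HSP90B1, XBP1, ATF6, DNAJB9, HERPUD1, SDF2L1, PDIA4, EDEM1 and CALR. They were chosen by symbol, and all 10 were found among the 20003 genes measured. The study compared cells incubated with OGP46, a compound known by its code name, with cells given its solvent DMSO (control). NB4 cells come from an acute promyelocytic leukemia and carry the fusion PML-RARα, and Kasumi-1 is a cell line of acute myeloid leukemia with the t(8;21) translocation and its fusion AML1-ETO. The 4 groups were NB4 control, NB4 with 1 μM OGP46, Kasumi-1 control and Kasumi-1 with 1 μM OGP46, with 3 samples in each. By the labels the cells were collected after 48 h. The study's text is not uniform on this time. Each group is cells of 1 established line. The labels do not say whether the 3 samples of a group came from separate cultures, so the p-values measure the spread between these samples, which may be technical. The study speaks of independent repeats of its experiments but does not tie single samples to them.

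Sensors in the ER membrane start the response. IRE1 (ERN1) splices the mRNA of XBP1, PERK (EIF2AK3) slows translation and raises ATF4, and ATF6 is cut in the Golgi to release a transcription factor. Their targets are ER chaperones and folding enzymes, the machinery that returns misfolded proteins to the cytosol for degradation, and, through ATF4, DDIT3 (CHOP) and TRIB3. Cells that make much secretory or granule protein, among them promyelocytes, rely on this program. Values per gene show neither the splicing of XBP1 nor the cleavage of ATF6 nor the phosphorylation of PERK, so the data speak only of mRNA levels.

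The promoters of these genes are shown first, because the genes are textbook targets of ATF6 and XBP1 through short elements near their starts. All 10 genes matched RefSeq promoter windows (GRCh38.p14), 12 windows in all, each of 300 bases from 250 before to 50 after a transcript start. Both strands were searched for the ER stress response element ERSE (CCAAT, 9 bases of any kind, CCACG) and for ERSE-II (ATTGG, 1 base of any kind, CCACG). The motifs do not overlap each other in these windows. ERSE was found in 4 of the 10 genes and ERSE-II in 2 others, against 0.0916% and 0.0696% of all 27305 genes with a window. Of all 35116 windows 0.0769% and 0.0541% held them. As the genes are known targets through these elements, this contrast is a description and no independent support. Each match is printed in its own reading direction with 5 bases on either side, the match in capitals, so that the shared ends and the differing middles can be compared.
HSPA5, ERSE, chr9:125241386-125241414, minus strand: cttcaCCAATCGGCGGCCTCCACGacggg
HSP90B1, ERSE, chr12:103930211-103930239, plus strand: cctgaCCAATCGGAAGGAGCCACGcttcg
HSP90B1, ERSE, chr12:103930316-103930344, minus strand: acccaCCAATCGCGCCGCACCACGcaccc
XBP1, ERSE, chr22:28800598-28800626, minus strand: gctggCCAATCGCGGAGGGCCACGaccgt
CALR, ERSE, chr19:12938379-12938407, minus strand: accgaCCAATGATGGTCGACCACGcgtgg
HERPUD1, ERSE-II, chr16:56932020-56932040, plus strand: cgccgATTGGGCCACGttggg
SDF2L1, ERSE-II, chr22:21642109-21642129, minus strand: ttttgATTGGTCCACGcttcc

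The matches in HSPA5, XBP1, CALR, HERPUD1 and SDF2L1 lie before the RefSeq start and outside the exons of GENCODE 29. Both HSP90B1 matches lie in an exon of that annotation, which starts the gene further upstream than RefSeq does. HSP90B1 is the gene with 2 exact matches, 1 in each direction. In HSPA5 the match ends 48 bases before the start. The 120 bases before that start (chr9:125241344-125241463, minus strand) hold 2 copies of CCAAT but 1 of CCACG, so that only 1 pair is complete, and it is the stretch in capitals in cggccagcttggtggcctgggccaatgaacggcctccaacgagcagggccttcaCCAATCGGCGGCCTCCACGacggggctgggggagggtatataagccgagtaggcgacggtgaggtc. No exact match of either element was found in the windows of ATF6 (chromosome 1, 161766294 to 161964070, plus strand), EDEM1 (chromosome 3, 5187646 to 5219957, plus strand), DNAJB9 (chromosome 7, 108569568 to 108574850, plus strand) and PDIA4 (chromosome 7, 149003062 to 149028641, minus strand), which says only that these letters are not in these windows. Another element, UPRE (TGACG followed by TGG), was in none of the 12 windows and in 0.729% of all windows. Of 63 other pathway genes with a window, 3 held ERSE (CANX, PDIA6 and CRELD2), 1 held ERSE-II (HYOU1) and 9 held UPRE, which 0.927% of all genes with a window held. None of the 8 cytosolic heat shock genes held either.

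The values are FPKM, which count sequenced fragments relative to transcript length and library size, so levels can be compared between genes per length. FPKM summed to between 248206.7 and 310262.3 per library, and 9339 to 9746 genes reached 1 FPKM. In NB4 the sums were higher in all 3 OGP46 libraries (263340.7 to 291523.2) than in the controls (248206.7 to 256267.9). The lines were checked on marker genes. The sum of 5 genes known for Kasumi-1 (RUNX1T1, CD34, KIT, TRH and MSLN) was 228 to 291 FPKM in Kasumi-1 libraries and 0.155 to 2.81 in NB4, with MSLN listed at 0 in every library. The highest NB4 value belonged to control sample 3, in which the median of 4 of these genes was 0.922% of their level in Kasumi-1 controls, against 0.00764% to 0.264% in the other NB4 libraries. Of 5 genes chosen for NB4 (HGF, STAB1, FGF13, DEFB1 and LGALS12) FGF13 was listed at 0 in NB4 and HGF was lower in NB4 controls (7.65 to 11.2 FPKM) than in Kasumi-1 controls (11.5 to 16.0), against their choice, while STAB1, DEFB1 and LGALS12 were higher in NB4. The sum of the 5 was 35.7 to 70.9 in NB4 and 17.8 to 24.6 in Kasumi-1. The 5 myeloid genes (MPO, AZU1, ELANE, PRTN3 and CD33) summed to 2594 to 3867 in NB4 controls, 1589.9 to 2782 with OGP46, 9541 to 11782 in Kasumi-1 controls and 7701 to 8878 with OGP46. Among markers of other cells, ALAS2, MS4A1 and TNFRSF17 were listed at 0 throughout. The T cell sum was 13.5 to 20.4 in NB4 controls, 22.5 to 34.7 with OGP46 and at most 0.700 in Kasumi-1, mainly from CD3D. The sum of stromal and epithelial genes was 40.3 to 56.0 in Kasumi-1 and at most 7.67 in NB4. In Kasumi-1 it came from EPCAM, with COL1A1, COL3A1 and KRT8 at most 0.0340 FPKM. The sum of plasma cell genes was 7.81 to 10.4 in Kasumi-1 and at most 0.822 in NB4. In Kasumi-1 it came from SDC1, with JCHAIN at most 0.105 FPKM. B cell and erythroid sums were at most 2.08 and 1.14. What part these differences have in the values below was not tested. In such bulk samples fewer cells of a type and less RNA per cell cannot be told apart.

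All 10 genes were expressed in every library, and CALR was the highest. In NB4 controls CALR, a lectin chaperone that holds glycoproteins and calcium in the ER, had 814 ± 60.2 FPKM (SD, n = 3), which placed it between rank 31 and 37 of all genes. It was followed by HSP90B1 (GRP94, the HSP90 chaperone of the ER) at 416 ± 94.2 FPKM and by HSPA5 (BiP), the central HSP70 chaperone that also holds the sensors inactive, at 193 ± 45.8 FPKM. PDIA4, a disulfide isomerase, had 110.1 ± 22.2 FPKM, and XBP1 77.1 ± 4.66 FPKM. SDF2L1, a cofactor of BiP, had 36.7 ± 4.46 FPKM, and HERPUD1, which organizes the degradation complex of the ER membrane, 30.1 ± 10.9 FPKM. EDEM1, which hands misfolded glycoproteins to that complex, had 8.97 ± 1.42 FPKM, DNAJB9 (ERdj4), a J protein that works with BiP, 6.47 ± 1.19 FPKM, and the sensor ATF6 5.25 ± 0.569 FPKM. CALR, HSP90B1 and HSPA5 thus stood well above the sensor and the degradation genes in level per length. The cofactor SDF2L1 was near HERPUD1, and DNAJB9 was below EDEM1. Together the 10 genes made up 0.611% to 0.729% of all FPKM in NB4 controls and 0.742% to 0.836% in Kasumi-1 controls, and 0.523% to 0.642% and 0.642% to 0.742% with OGP46. CALR alone gave 36.9% to 59.2% of their sum.

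**Figure D1:**
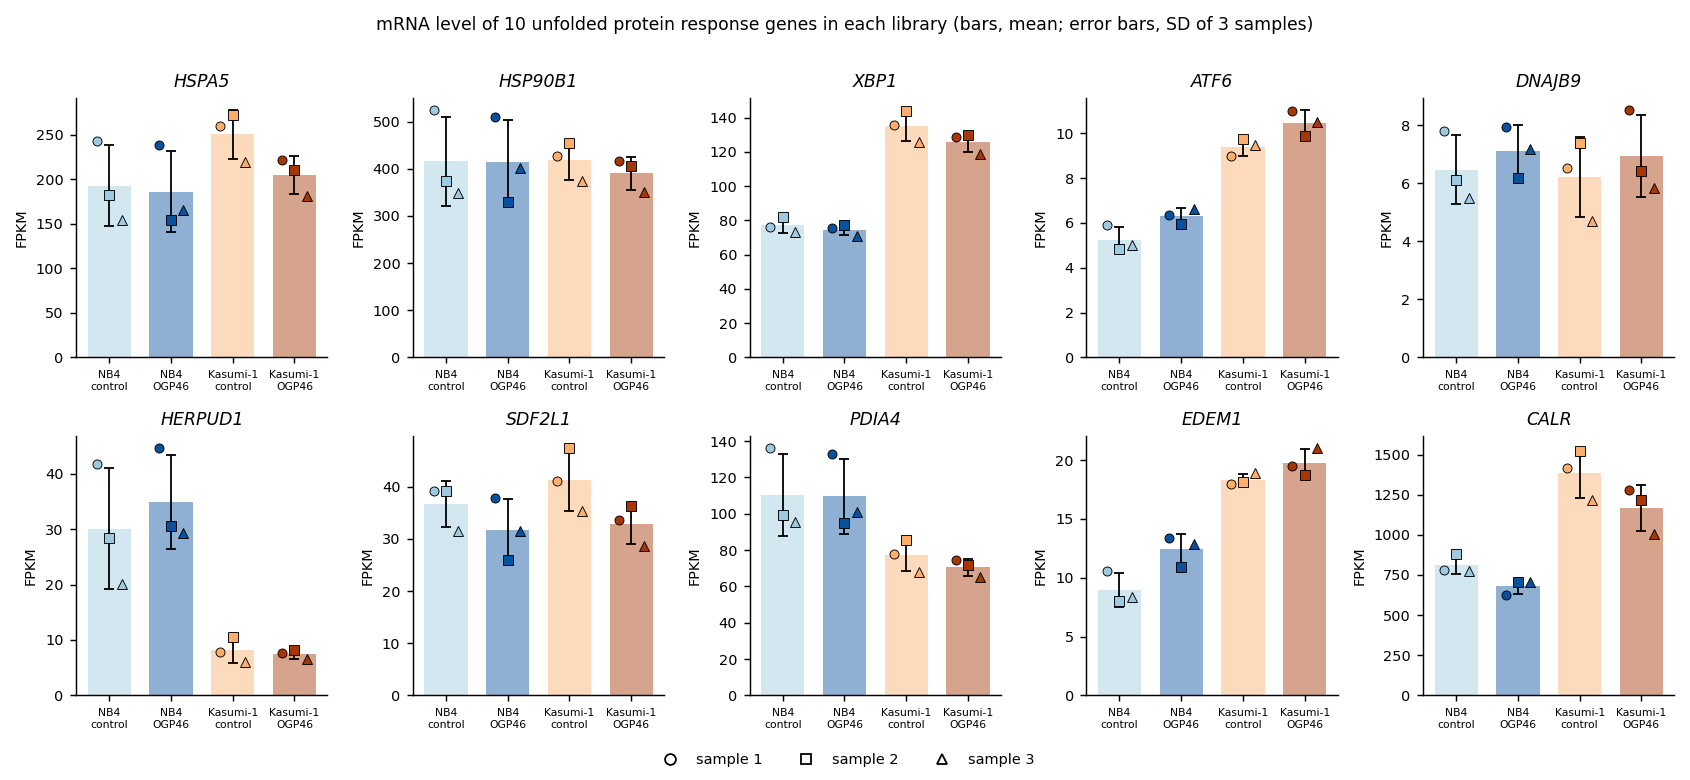
FPKM (y axis, linear from 0) of each gene in the 12 libraries by group (x axis), with bars for the mean, error bars for the SD of 3 samples and symbols for the sample number. HERPUD1 and PDIA4 stood higher in all NB4 libraries than in all Kasumi-1 libraries, and XBP1, ATF6, EDEM1 and CALR lower, while OGP46 and control bars of a line differed little.

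The mRNA levels with OGP46 and in controls were compared in each line in turn. In NB4 cells none of the 10 genes passed the test (limma, Benjamini-Hochberg adjusted p below 0.05 over 11750 genes together with a minimum log2 fold change of 0.58, or 1.49-fold), against 1.56% of all genes. At an unadjusted p below 0.05 there were 3, EDEM1, CALR and ATF6, against 29.1% of all genes. The highest upper ends of the 95% intervals were 0.84 for HERPUD1 and 0.77 for EDEM1 on the log2 scale.

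EDEM1 had the largest difference. It had 10.6, 7.99 and 8.32 FPKM in NB4 control samples 1, 2 and 3 and 13.4, 10.9 and 12.9 FPKM with OGP46. Each OGP46 sample was above each control. The log2 fold change was 0.47 (SE 0.13, 95% interval 0.17 to 0.77, a 1.39-fold difference) with an adjusted p of 0.0807. Samples with the same number deviated together in both lines, and with the sample number as a block the adjusted p was 0.00566, still under the minimum fold. None of the 10 genes passed both thresholds with the block, against 6.21% of all genes.

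CALR went the other way. It had 783, 883 and 776 FPKM in the NB4 controls and 624, 708 and 704 FPKM with OGP46. All 3 OGP46 samples were below all controls. Its log2 fold change was -0.26 (SE 0.09, 95% interval -0.46 to -0.06), with an adjusted p of 0.106, or 0.0262 with the block.

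ATF6 had 5.90, 4.83 and 5.02 FPKM in the NB4 controls and 6.35, 5.94 and 6.62 FPKM with OGP46. Its groups did not overlap either. The log2 fold change was 0.26 (SE 0.11), with an adjusted p of 0.154, and 0.0752 with the block. Groups that do not overlap were common in NB4, with 34.7% of all genes, of which 32.7% were higher with OGP46 and 1.91% lower. Of the 10 genes 2 were higher in this way, ATF6 and EDEM1, and 1 was lower, CALR.

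The large chaperones overlapped fully between NB4 groups. HSPA5 had 243, 182 and 154 FPKM in the controls and 239, 154 and 166 FPKM with OGP46. The pattern is that of the sample numbers, with sample 1 high in both arms. Its log2 fold change was -0.05 (SE 0.20, 95% interval -0.51 to 0.41, adjusted p = 0.874), and with the block the SE was 0.08. HSP90B1 had 524, 375 and 349 FPKM in the controls and 509, 330.0 and 402 FPKM in OGP46 samples, with a log2 fold change of -0.01 (SE 0.19). PDIA4 had 136, 99.3 and 95.4 FPKM and 133, 94.7 and 101 FPKM, a log2 fold change of -0.01 (SE 0.17). ER stress is known to raise these chaperones, and their 95% intervals ended at 0.41, 0.42 and 0.37.

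Of the remaining genes in NB4, HERPUD1 varied most. It had 41.7, 28.4 and 20.1 FPKM in the controls and 44.6, 30.6 and 29.3 FPKM with OGP46, higher in 3 of 3 numbered pairs. Its log2 fold change was 0.25 (SE 0.26, adjusted p = 0.529), and -0.01 without control sample 3. SDF2L1 had 39.2, 39.3 and 31.6 FPKM and then 37.9, 26.0 and 31.5 FPKM, a log2 fold change of -0.22 (SE 0.15) in which pair 2 differed by -0.59 and the other pairs by -0.05 and -0.00. DNAJB9 and XBP1 had log2 fold changes of 0.14 (SE 0.15) and -0.05 (SE 0.08).

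In Kasumi-1 cells again none of the 10 genes passed, against 0.0338% of 11835 genes, or 0.617% with the block, where again none of the 10 passed. There were 2 with an unadjusted p below 0.05, HSPA5 and SDF2L1, against 15.6% of all genes. Both were lower with OGP46. HSPA5 had 259.5, 272 and 220.0 FPKM in the controls and 222, 211 and 181 FPKM with OGP46. The OGP46 samples lay below the control of the same number in 3 of 3 pairs, while the ranges of the groups overlapped. The log2 fold change was -0.29 (SE 0.10, 95% interval -0.51 to -0.07), with an adjusted p of 0.211, and 0.0315 with the block.

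SDF2L1 had 41.2, 47.4 and 35.4 FPKM in Kasumi-1 controls and 33.6, 36.3 and 28.7 FPKM with OGP46. It was lower in 3 of 3 pairs by 0.29 to 0.38 on the log2 scale, and its groups overlapped. The log2 fold change was -0.33 (SE 0.11), with an adjusted p of 0.217, and 0.0175 with the block. CALR had 1415, 1520.4 and 1214 FPKM and then 1277, 1218 and 1007 FPKM, lower in 3 of 3 pairs, with a log2 fold change of -0.25 (SE 0.12, adjusted p = 0.346, or 0.0868 with the block).

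The other Kasumi-1 values were smaller. HSP90B1, XBP1 and PDIA4 were each lower in 3 of 3 pairs, with log2 fold changes of -0.10 (SE 0.10), -0.10 (SE 0.07) and -0.13 (SE 0.09). ATF6 had 8.97, 9.74 and 9.48 FPKM in the controls and 11.0, 9.87 and 10.5 FPKM with OGP46. It was the only one of the 10 whose groups did not overlap in Kasumi-1, where 22.6% of all genes had such groups (17.4% higher and 5.23% lower), and its log2 fold change was 0.15 (SE 0.07, adjusted p = 0.337). EDEM1, DNAJB9 and HERPUD1 had log2 fold changes of 0.11 (SE 0.06), 0.16 (SE 0.17) and -0.09 (SE 0.18).

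With the block and with no minimum fold, a rule added after seeing the data, EDEM1 passed as higher and CALR as lower in NB4, where 22.9% of all genes passed (21.0% higher and 1.88% lower). HSPA5 and SDF2L1 passed as lower in Kasumi-1, where 3.56% of all genes passed (2.44% higher and 1.12% lower). The direction of small values depended on scale. In NB4 the median gene had a log2 fold change of 0.18 in FPKM as deposited, of 0.06 when each library was scaled to the same sum (TPM) and of -0.04 when libraries were centred on the median gene. The median of the 10 genes was -0.01, -0.13 and -0.23. These scalings shift all genes of a library nearly alike, so its distance from the median gene stays the same by design. After quantile normalization, which gives all libraries the same distribution, it was -0.10 against -0.01 for all genes. In Kasumi-1 the median of the 10 genes was -0.10 against 0.05 for all genes, and -0.17 against -0.02 after centring. After quantile normalization it was -0.10 against 0.00 there. With centring and the block together, where 14.4% of all genes had an adjusted p below 0.05, the log2 fold changes in NB4 were -0.27 for HSPA5 (adjusted p = 0.0427), -0.27 for XBP1 (adjusted p = 0.0294), -0.23 for PDIA4 (adjusted p = 0.0286), -0.44 for SDF2L1 (adjusted p = 0.0461), -0.48 for CALR (adjusted p = 0.00350) and 0.25 for EDEM1 (adjusted p = 0.0299). Under the same setting in Kasumi-1, where 9.92% of all genes had one, HSPA5, HSP90B1, XBP1, SDF2L1, PDIA4 and CALR were lower by 0.17 to 0.39, with adjusted p-values between 0.00170 and 0.0339. All of these lie under the minimum fold, and reading this setting without it was chosen after seeing the data.

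**Figure D2:**
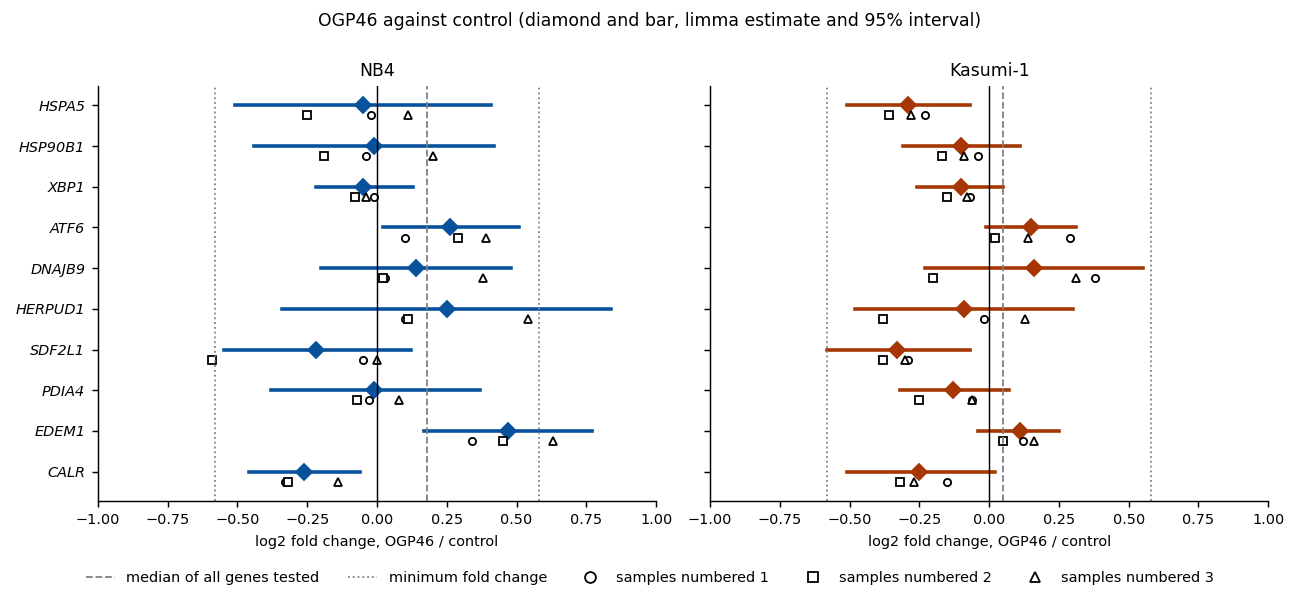
Log2 fold change of OGP46 over control (x axis) for each gene in NB4 (left) and Kasumi-1 (right), with the limma estimate (diamond), its 95% interval (bar) and the difference within each numbered pair of samples (open symbols). The estimates lie between -0.33 and 0.47, inside the dotted lines of the minimum fold, and EDEM1 and CALR in NB4 and HSPA5 and SDF2L1 in Kasumi-1 have intervals that leave out 0, as does ATF6 in NB4.

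The response was then compared between the lines as the interaction of line and treatment over the 12 samples. None of the 10 genes and none of the 12309 genes tested differed at an adjusted p below 0.05 by limma, a share of 0%. At an unadjusted p below 0.05 there were 1 of the 10, EDEM1, and 11.0% of all genes, 1225 with a larger and 123 with a smaller value in NB4. This split rested on the scale and was 402 and 406 after scaling to equal sums, 398 and 474 after median centring and 453 and 435 after quantile normalization. With the block 1.93% of all genes differed and again none of the 10. The log2 fold change of EDEM1 was larger in NB4 than in Kasumi-1 by 0.36 (SE 0.15, 95% interval 0.04 to 0.69, adjusted p = 0.412, or 0.109 with the block). It was 0.22 after scaling to equal sums and 0.21 after median centring, where none of the 10 genes had an unadjusted p below 0.05. For CALR the difference was -0.02 (95% interval -0.36 to 0.32) and for HSPA5 0.24 (95% interval -0.31 to 0.79), or 0.04 to 0.42 when 1 sample was left out. A p that misses the threshold does not show that the lines responded alike.

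The genes also varied together across libraries. After centring on the mean of each line, HSPA5 varied with PDIA4 (r = 0.96), HSP90B1 (r = 0.94), SDF2L1 (r = 0.84) and HERPUD1 (r = 0.81) over the 12 libraries. These r are a description without a p, since the libraries share lines, treatment and sample numbers. Of 5462 genes with at least 5 FPKM in both lines, the 5 others closest to HSPA5 were MANF (r = 0.94), an ER protein released under stress, HYOU1 (r = 0.94), the nucleotide exchange factor of BiP, NNT (r = 0.83), a mitochondrial transhydrogenase, PDIA3 (r = 0.83), a disulfide isomerase, and CANX (r = 0.81), the membrane lectin chaperone. Apart from NNT these are ER folding genes of the lists used here.

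In NB4 HSPA5, HSP90B1, PDIA4 and HERPUD1 were high in both samples numbered 1, while CALR deviated by 0.08 and -0.25 there. HSPA5 stood 0.39 above the line's mean on the log2 scale in control 1 and 0.36 above it in OGP46 1, and deviated by -0.28 to -0.03 in the other 4 libraries. HERPUD1 deviated by 0.41 and 0.51 in the libraries numbered 1 and by -0.64 in control 3. In Kasumi-1 HSPA5 was highest in control 2 and lowest in OGP46 3, where it deviated by 0.27 and -0.32.

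ATF6 and EDEM1 varied together (r = 0.92). Their r with HSPA5 was 0.05 and 0.16 over the 12 libraries, and it had opposite signs in the lines, with 0.29 and 0.37 within NB4 and -0.56 and -0.91 within Kasumi-1. EDEM1 and CALR ran against each other (r = -0.72). XBP1 followed CALR (r = 0.80) more closely than HSPA5 (r = 0.52). Within NB4 alone the r of XBP1 with HSPA5 was 0.18 and within Kasumi-1 alone 0.96, each over 6 libraries. Of the genes with an ERSE match, HSP90B1 had the r of 0.94 given above and CALR one of 0.33 with HSPA5 (-0.21 within NB4 and 0.99 within Kasumi-1), while PDIA4 had no match of either element.

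**Figure D3:**
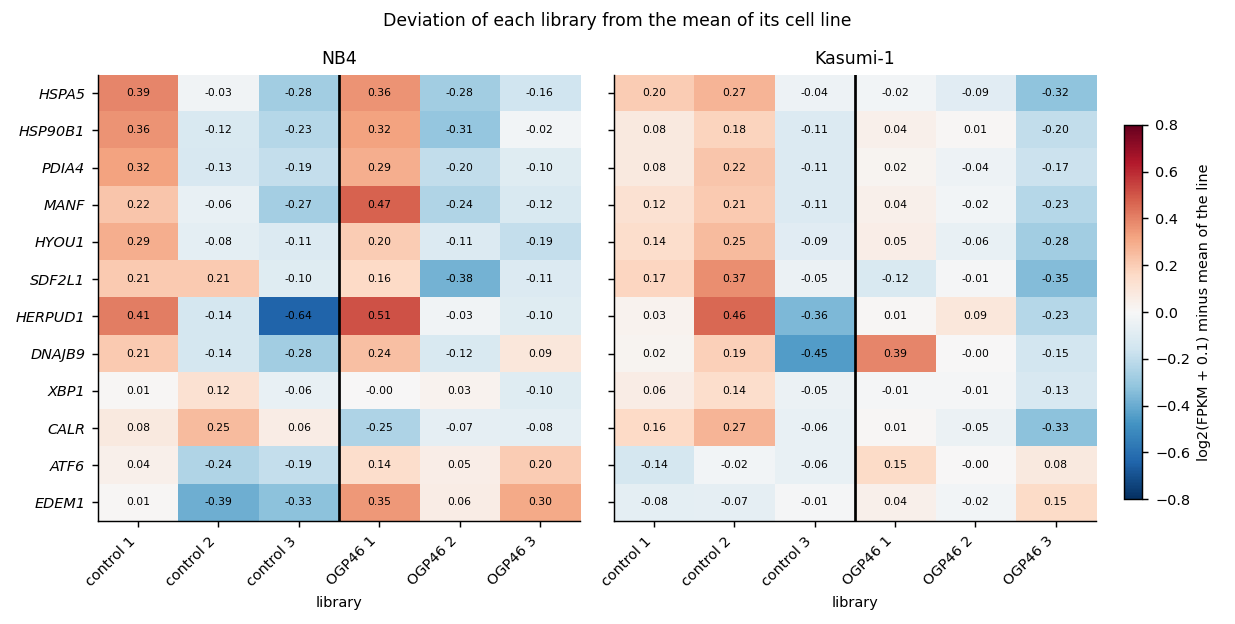
Deviation of log2(FPKM + 0.1) from the mean of the line (color and number) for the 10 genes and for MANF and HYOU1 (rows) in each library (columns). In NB4 the upper rows are high in control 1 and OGP46 1 alike, while EDEM1 and ATF6 in the lowest rows separate OGP46 from control samples 2 and 3.

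The untreated lines differed in some of these genes. Of the 10 genes 5 passed in NB4 control against Kasumi-1 control, 1 higher in NB4 and 4 lower, which is close to the 52.4% of 12302 genes that passed (22.7% higher and 29.7% lower). Which library set a line was in cannot be told apart from the line itself, and the controls here are those of the comparisons above. HERPUD1 had the largest difference. It had 41.7, 28.4 and 20.1 FPKM in NB4 and 7.81, 10.6 and 5.96 FPKM in Kasumi-1, 3.61-fold higher in NB4 (log2 fold change 1.85, SE 0.27, adjusted p = 2.2e-04).

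EDEM1, in the same degradation pathway, was lower in NB4. Its 10.6, 7.99 and 8.32 FPKM stood against 18.0, 18.1 and 18.9 FPKM in Kasumi-1, a log2 fold change of -1.03 (SE 0.11, adjusted p = 2.8e-05). Both transcription factors were lower too. ATF6 had a log2 fold change of -0.83 (SE 0.10, adjusted p = 5.7e-05), and XBP1, with 76.2, 82.1 and 73.0 FPKM in NB4 and 136, 144 and 126 FPKM in Kasumi-1, one of -0.81 (SE 0.08, adjusted p = 1.5e-05). None of these groups overlapped, as held for 77.7% of all genes (34.6% higher and 43.1% lower).

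CALR was lower in NB4 by the test, with a log2 fold change of -0.76 (SE 0.11, adjusted p = 1.8e-04), but this rested on the scale. It was -0.56 after scaling to equal sums and -0.06 after quantile normalization, which sets genes of equal rank to equal values, as CALR held ranks 31 to 37 in NB4 controls and 28 to 35 in Kasumi-1 controls. PDIA4 was higher in NB4, with a log2 fold change of 0.50 (SE 0.14, adjusted p = 0.00937) that missed the minimum fold in FPKM and passed it at 0.71 after scaling to equal sums. HSPA5 had -0.39 (SE 0.16, adjusted p = 0.0464). For HSP90B1, DNAJB9 and SDF2L1 the log2 fold changes were -0.03 (95% interval -0.37 to 0.31), 0.07 (95% interval -0.34 to 0.48) and -0.17 (95% interval -0.45 to 0.11). Over all genes the calls divided into 2790 higher and 3659 lower in NB4, and into 3585 and 3004 after scaling to equal sums, where the 10 genes divided into 2 and 3.

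The order of the 4 groups can be given gene by gene. For XBP1 and CALR both Kasumi-1 groups stood above both NB4 groups, and for HERPUD1 and PDIA4 both NB4 groups stood above both Kasumi-1 groups. In ATF6 no neighbours overlapped, from Kasumi-1 with OGP46 at 10.4 ± 0.560 FPKM through Kasumi-1 control at 9.40 ± 0.391 and NB4 with OGP46 at 6.30 ± 0.345 to NB4 control at 5.25 ± 0.569. EDEM1 had the same order, with overlap only between the Kasumi-1 groups. For HSPA5, HSP90B1, DNAJB9 and SDF2L1 every group overlapped its neighbour in the order.

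The wider pathway was followed in 71 genes in 6 lists. In NB4 1 of 70 tested was up-regulated with OGP46 and none down-regulated, against 1.45% of all genes up-regulated. This was TRIB3, a pseudokinase induced by ATF4 and DDIT3, with 17.2, 12.8 and 15.1 FPKM in the controls and 29.1, 30.4 and 23.8 FPKM with OGP46. All OGP46 samples were above all controls, 1.84-fold on average (log2 fold change 0.88, SE 0.13, adjusted p = 0.0299). The call was lost after scaling to equal sums (log2 fold change 0.76, adjusted p = 0.121), median centring (0.66, adjusted p = 0.166) or quantile normalization, with no filter on low values, with moderation without a trend and when any NB4 sample but OGP46 2 was left out. With the block it held at an adjusted p of 4.4e-04, and DDIT3 and KDELR3 passed beside it, 3 of 70 against 5.06% of all genes. With the block and median centring TRIB3 passed (adjusted p = 0.0162), and DDIT3 (0.52, adjusted p = 0.0238) and KDELR3 (0.93, adjusted p = 0.0622) did not, as the calls over all genes went from 595 higher and 135 lower to 188 and 203.

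DDIT3 (CHOP), a transcription factor on the list of the PERK arm, had 15.8, 6.73 and 6.85 FPKM in the NB4 controls and 22.5, 14.4 and 10.6 FPKM with OGP46. It was higher in 3 of 3 pairs, with control 1 above 2 of the OGP46 samples. Its log2 fold change was 0.74 (SE 0.11, adjusted p = 0.00126 with the block). KDELR3, a receptor that returns ER proteins from the Golgi, had a log2 fold change of 1.15 (SE 0.27, adjusted p = 0.0129 with the block) at only 0.0249 to 0.487 FPKM. In Kasumi-1 none of the 71 genes passed with or without the block, against 0.617% and 0.0338% of all genes. At an adjusted p below 0.05 with the block and no minimum fold there were 3, with SDF2 and DDIT3 higher, CRELD2 lower. Over all genes 3.56% passed this rule (2.44% higher and 1.12% lower), so 3 of 71 is close to that share. DDIT3 had 8.24, 9.29 and 6.05 FPKM in Kasumi-1 controls and 10.3, 10.9 and 9.39 FPKM in OGP46 samples, with a log2 fold change of 0.39 (SE 0.08 and adjusted p = 0.0370 with the block). The interaction passed for none of the 71 genes.

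The lists were unlike in NB4. The 7 tested genes of the PERK arm had a median log2 fold change of 0.45, from 0.18 for EIF2S1 to 0.88 for TRIB3, and all 7 were above 0. The list is only named for PERK, whose activity was not measured. The 7 sensors and transducers had a median of 0.32, from 0.06 for CREB3L2 to 0.45 for ERN1, and again all were above 0. ER-associated degradation (15 genes) had a median of 0.26, with -0.34 for DERL3 as the lowest, and COPII and ER exit (10 genes) 0.24, from 0.12 for TMED10 to 1.15 for KDELR3. Translocation into the ER (15 genes) had a median of 0.14, from 0.02 for SPCS1 to 0.35 for SPCS3. Folding and redox (16 genes) had the lowest, 0.06, from -0.25 for CRELD2 to 0.41 for DNAJC3. All genes had a median of 0.18 with 81.9% above 0, so the lists stood on either side of it, and the medians moved with the scale. Median centring shifts all lists alike, and all genes then had a median of -0.04 with 40.6% above 0. The PERK arm had 0.23 (5 of 7 above 0), sensors and transducers 0.10 (4 of 7) and ER-associated degradation 0.04 (10 of 15). COPII and ER exit had 0.02 (6 of 10), translocation -0.08 (5 of 15) and folding and redox -0.16 (4 of 16). Cytosolic heat shock genes (8 genes), a list outside the ER, had 0.07 and no call.

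With the block and no minimum fold, 22 of 70 pathway genes (31.4%) were higher in NB4 and none lower, where 21.0% of all genes were higher. Of the PERK arm these were 4 of 7, of the sensors 3 of 7, of ER-associated degradation and of translocation 5 of 15 each, of COPII and ER exit 3 of 10 and of folding and redox 2 of 16 (DNAJC3 and SDF2). The sensors were EIF2AK3 (PERK), ATF6B and MBTPS2, a protease that takes part in cutting ATF6. The 4 of the PERK arm were DDIT3, TRIB3, PPP1R15A and PPP1R15B, the last 2 being the subunits that reverse the block of translation. These genes, apart from DDIT3, TRIB3, DNAJC3, SDF2 and MBTPS2, were named after their values were seen.

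In Kasumi-1 all genes had a median of 0.05 with 62.0% above 0, and the list medians ran from -0.04 to 0.15. As in NB4, sensors and transducers stood above the median of all genes and folding and redox below it. Sensors and transducers had 0.15, from 0.01 for CREB3 to 0.28 for MBTPS2, with all 7 above 0. ER-associated degradation had 0.07, from -0.44 for DERL3 to 0.24 for EDEM3. COPII and ER exit had 0.05, from -0.10 for SEC24D to 0.24 for KDELR3. The PERK arm had 0.02, from -0.24 for CHAC1 to 0.39 for DDIT3, translocation 0.02, from -0.14 for SSR3 to 0.20 for SPCS3, and folding and redox -0.04, from -0.40 for CRELD2 to 0.29 for SDF2. DERL3 and CRELD2 were the lowest of their lists in both lines. CRELD2, a disulfide isomerase of the ER with an ERSE in its promoter window, had 6.83, 8.43 and 6.32 FPKM in Kasumi-1 controls and 5.66, 5.66 and 4.92 FPKM with OGP46.

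**Figure D4:**
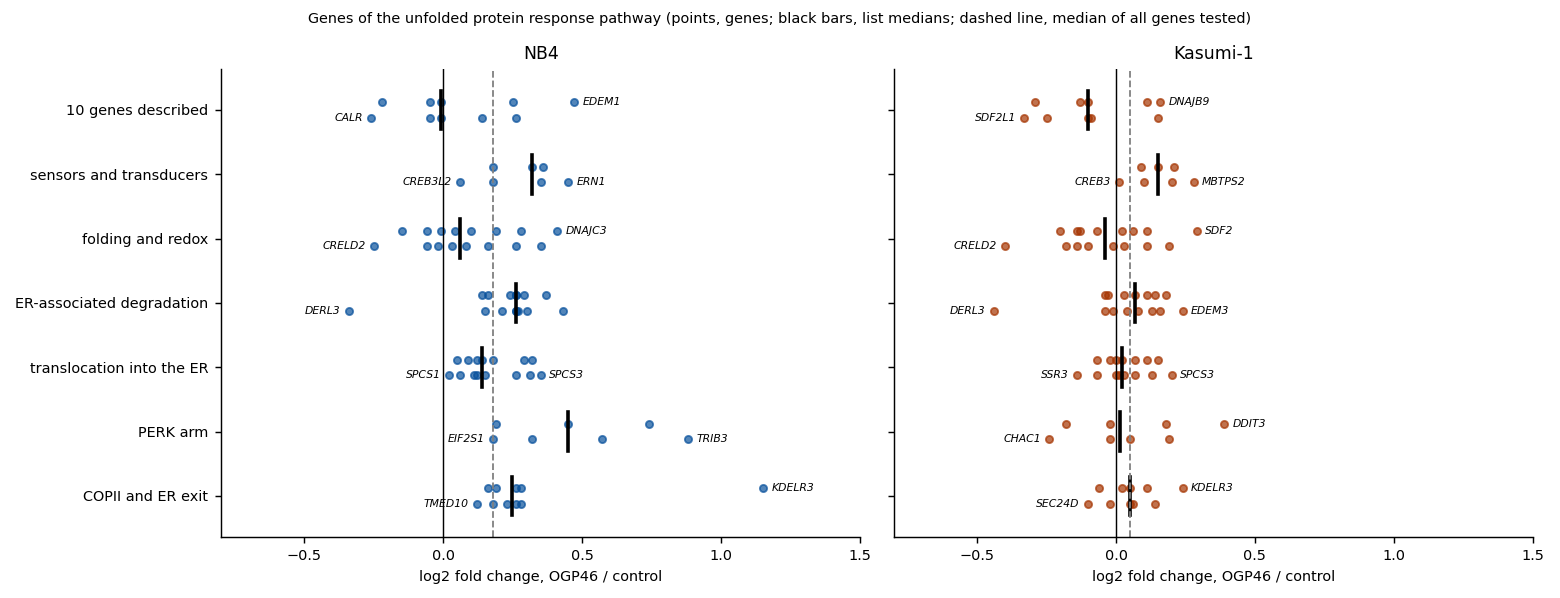
Log2 fold change of OGP46 over control (x axis) of each tested gene (points) by list (y axis) in NB4 (left) and Kasumi-1 (right), with list medians as black bars and the median of all genes as a dashed line. In NB4 the PERK arm (median 0.45) lies to the right of the median of all genes at 0.18, and the 10 genes (median -0.01) and folding and redox (median 0.06) lie to its left.

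Over all genes 52.4% passed between the untreated lines (22.7% higher and 29.7% lower in NB4). A smaller share of the pathway genes did, 6 higher and 18 lower in NB4 of 71. The 2 largest in each direction were KDELR1 (log2 fold change 1.65, SE 0.09, adjusted p = 4.7e-07) and VCP, the ATPase that pulls proteins out of the ER membrane (0.96, SE 0.08, adjusted p = 5.2e-06), and KDELR3 (-2.95, SE 0.43, adjusted p = 2.2e-04) and CHAC1 (-2.02, SE 0.23, adjusted p = 4.8e-05). KDELR1 and KDELR3 are receptors of the same retrieval step and differed in opposite directions. KDELR3 averaged 0.118 FPKM in NB4 controls and 1.46 FPKM in Kasumi-1 controls, and CHAC1 0.0378 and 0.462 FPKM. At these low levels the added 0.1 FPKM shapes both values. CHAC1 passed the filter only through its Kasumi-1 level, so its call is no independent support for a difference. After scaling to equal sums the division was 11 higher and 14 lower.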

How the data were processed

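Per the labels, a stranded kit was used on poly(A) mRNA. The values deposited by the authors are FPKM for each gene symbol in each of 12 samples. The submitters' processing notes name Trimmomatic, HISAT2, Cufflinks, HTSeq and hg38, without versions, and whether counting used strand is not given in the sources used here. Of the values 632 lie above 0 and below 1e-04. Depth is unknown, and no interval for counting error is given. After 27 symbols turned into dates were left out, 20003 genes remained. HSP90B1 and DNAJB9 share exonic sequence with the antisense genes C12orf73, PNPLA8 and THAP5 of the table (GENCODE 29), and EDEM1 and CALR with antisense genes that are not in it. XBP1 has a pseudogene, XBP1P1. These values are uncertain to that extent.

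Log2(FPKM + 0.1) was compared by limma 3.58.1 (R 4.3.3) with empirical Bayes moderation and a trend, after genes averaging under 0.1 FPKM in the compared samples were removed, within each line, between control lines, and as the interaction in one model of 12 samples. Two-sided p-values were adjusted by Benjamini-Hochberg over all genes tested, and a call needed an adjusted p below 0.05 with an absolute log2 fold change no smaller than 0.58 (the interaction had no minimum). Fold changes are on this scale, which understates low genes. The fit was tested on simulated data. Alternatives were another pseudocount (1 or 0.01), filter, scaling or moderation, the sample number as a block and leaving out each sample.

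Sample numbers were taken to pair OGP46 and control samples within a line, since the deviations of same-numbered samples from their group means correlated over genes in all pairs (r = 0.35, 0.62 and 0.20 in NB4 and 0.22, 0.16 and 0.40 in Kasumi-1). Differently numbered samples had r from -0.47 to 0.22 in NB4 and from -0.28 to 0.10 in Kasumi-1. In NB4 control 1 with OGP46 3 had 0.22, above the 0.20 of pair 3. The pairing was thus inferred from these data and is not certain, as are the p-values with the block. Between control lines r was -0.05, 0.02 and -0.00.

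The members and lists were chosen with earlier results of these data known. Named pathway genes are those called, the highest and lowest of each list in each line and the 2 largest in each direction between lines, apart from a gene that is not reported here. The 5 genes most like HSPA5 have the highest Pearson r over 12 samples. Protein sequences were not analysed here.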

Additional observations from a re-analysis of the deposited data

How the results depend on the processing

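Of 888 recomputed values, 805 stayed the same. For a fold change this means the same direction and side of the threshold, and for a count of calls an equal or close number. No alternative with the minimum fold, and none that left out 1 sample, called any of the 10 genes for OGP46 or for the interaction. Between the control lines 5 to 6 of the 10 were called when a sample was left out. Over all genes the 183 calls in NB4 became 117 with a pseudocount of 1, 4 with no filter or without a trend, 0 with TPM scaling, median centring or quantile normalization, 730 with the block, 498 in a model of all 12 samples and between 0 and 396 without 1 sample (396 without OGP46 sample 2, at most 2 without any other). The 4 calls in Kasumi-1 became 0 to 24 under the other filters, pseudocounts, scalings and moderation, 73 with the block, 93 with the block and median centring, 1 in a model of all 12 samples and 0 to 11 without 1 sample. The interaction had 0 calls, or 14 with a pseudocount of 1, 237 with the block, 144 with the block and median centring and 1 each without NB4 control 1, NB4 control 3 or NB4 OGP46 3.

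With the replicate block the pathway genes called in NB4 were 3 in place of 1, and with the replicate block and no minimum fold 22, with 2 of the 10 genes. In Kasumi-1 the replicate block and no minimum fold gave 3 pathway genes and 2 of the 10, against 3.56% of all genes. With no minimum fold alone it was 2 pathway genes in NB4. It was 0 in NB4 with no filter on low values, moderation without a trend, TPM scaling, median centring or quantile normalization, 1 with the replicate block and median centring, and 0 to 1 when a sample was left out. Between control lines no minimum fold gave 50 pathway genes and with the replicate block 53, in place of 24. Over all genes the same rules called 9168 and 9097 of 12302, in place of 6449. In FPKM as deposited and with the minimum fold, the block changed no other call of the 10 genes or the pathway lists.

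Signs turned for small values. DNAJB9 in NB4 was -0.08 with median centring, with or without the replicate block, and -0.06 with quantile normalization. For the interaction, TPM scaling gave -0.05 for HSP90B1, -0.09 for XBP1, -0.03 for ATF6, -0.03 for SDF2L1 and -0.02 for PDIA4. Median centring, with or without the replicate block, gave -0.06, -0.09, -0.04, -0.04 and -0.03, and quantile normalization -0.09 for XBP1, -0.05 for ATF6, -0.03 for SDF2L1 and -0.02 for PDIA4. Between control lines HSP90B1 was 0.18 with TPM scaling, 0.11 with median centring, with or without the replicate block, and 0.27 with quantile normalization, and SDF2L1 was 0.04 with TPM scaling.

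Leaving out 1 sample gave, for OGP46 in NB4, -0.25 to 0.13 for HSPA5, -0.17 to 0.17 for HSP90B1, -0.08 to 0.00 for XBP1, -0.01 to 0.52 for HERPUD1 and -0.15 to 0.15 for PDIA4. In Kasumi-1 it gave -0.02 to 0.30 for DNAJB9 and -0.29 to 0.12 for HERPUD1. For the interaction it gave 0.04 to 0.42 for HSPA5, -0.07 to 0.27 for HSP90B1, -0.16 to 0.17 for DNAJB9, -0.02 to 0.25 for SDF2L1, -0.03 to 0.28 for PDIA4 and -0.12 to 0.08 for CALR. Between control lines it gave -0.20 to 0.09 for HSP90B1, -0.12 to 0.21 for DNAJB9 and 0.34 to 0.60 for PDIA4. The cause of these shifts was not tested, and 3 samples a group and an unknown depth limit what can be shown.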
